A study of Mus musculus with 8 samples.

Results

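Sox9 and 9 genes of the cartilage programme were followed across mouse lung mesenchyme, the connective tissue around the branching airways. The 10 genes are the transcription factors Sox9, Sox5 and Sox6, the collagen chains Col2a1, Col9a1 and Col11a1, and the matrix genes Acan, Hapln1, Matn1 and Matn4. They were found by gene symbol in the platform annotation, which gave 26 probe sets of the 34945 that carry 1 symbol, or 10 of 18193 genes. A probe set is a group of short oligonucleotides on the array that reads 1 transcript region. All 26 passed the filter on low values.

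Expression was measured on 8 arrays in 4 groups of 2, all from CD1 embryos of stages e11.5 to e12.5, in days of embryonic development. Stalk mesenchyme, which surrounds the airway behind the branch ends, was kept on tissue culture plastic for 12 h in medium with 400 ng/ml Wnt1, a secreted ligand of the Wnt pathway (Wnt1 culture), or in medium without it (control culture). Tip mesenchyme, which surrounds the growing branch ends, and stalk mesenchyme were also profiled uncultured, directly after dissection. The labels name no mutation or transgene, nor do they say whether the 2 arrays of a group stem from different litters. The p-values therefore reflect array-to-array spread, part of which may be technical.

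Sox9 is the transcription factor that starts and maintains cartilage formation, and Sox5 and Sox6 act with it as partners on cartilage matrix genes. In the trachea and main bronchi the mesenchyme forms cartilage rings under this programme, while the distal lung lies outside the rings. In the embryonic lung Sox9 also marks the epithelium of the branch ends, a cell type that dissected mesenchyme can carry with it. In bulk tissue fewer cells of a type and less RNA per cell cannot be told apart.

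Promoter sequences were available from RefSeq for 8 of the 10 genes, as 15 windows from 250 bases before to 50 bases after a transcript start (build GRCm38.p6). Those of Acan and Hapln1 are shown up to the first base of the annotated gene, on the plus strand, because these were the members called in both cultures against stalk, in opposite directions. Capitals mark the Sox-type motif ACAAT. The Acan stretch is chr7:79052976-79053225 and the Hapln1 stretch is chr13:89540386-89540528.
Acan: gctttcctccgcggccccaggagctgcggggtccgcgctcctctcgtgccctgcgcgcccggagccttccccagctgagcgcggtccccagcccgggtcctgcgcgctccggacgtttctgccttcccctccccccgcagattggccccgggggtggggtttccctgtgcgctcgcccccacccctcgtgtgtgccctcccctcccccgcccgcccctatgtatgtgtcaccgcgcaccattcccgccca
Hapln1: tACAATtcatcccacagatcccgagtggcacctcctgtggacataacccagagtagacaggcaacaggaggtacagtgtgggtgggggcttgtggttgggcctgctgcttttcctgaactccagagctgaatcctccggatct
ACAAT, searched on both strands, was in 5 of the 15 member windows and in 31.0% of all 32851 windows of the same length. The motif ACAAAG, which begins with the same 4 letters but cannot match at the same start, was also in 5 of 15, against 18.7% of all windows. Of the 15 windows, 6 are of Sox6, and they hold all 5 with ACAAAG and 3 of the 5 with ACAAT. Neither motif was in the Acan window, and Hapln1 had 1 ACAAT. A match is a description of the letters and says nothing of binding.

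Signals are on a linear scale, and the median signal of each array is used below as a stand-in for the level of undetected transcripts. The 4 culture arrays had medians of 149 to 299, and the 4 uncultured arrays 76.5 to 99.8, although the 2% trimmed mean was 500 on all 8. The ratio of 3' to 5' signal of Actb, a measure of RNA integrity, was 21.2 and 6.81 in Wnt1 culture, 23.3 and 24.4 in control culture, 3.65 and 3.84 in tip, and 4.52 and 2.02 in stalk. Culture and uncultured arrays therefore differed in signal level and in this ratio, and their part in the culture comparisons below was not tested. Of the 10 lung mesenchyme markers (Foxf1, Tcf21, Tbx4 and others), 9 or 10 exceeded the array median on each array. The number of arrays, 2 a group, limits the precision of every value.

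The label of tracheal cartilage was only partly borne out by the signals. Col2a1, the main collagen of cartilage, exceeded its array's median on 1 of 8 arrays, and Matn1, a cartilage matrix adaptor protein, also on 1. The count of members above the median on both arrays of a group was 3 in Wnt1 culture, 5 in control culture, 6 in tip and 6 in stalk. Among probe sets it was 5, 6, 14 and 15 of 26 in the same order of groups. The share of all probe sets above the median on both arrays of a group was not computed. The medians themselves were higher on the culture arrays, so the lower counts there do not by themselves show a fall in expression. The genes are therefore treated by name and not as a sign of cartilage in these samples.

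**Figure D1:**
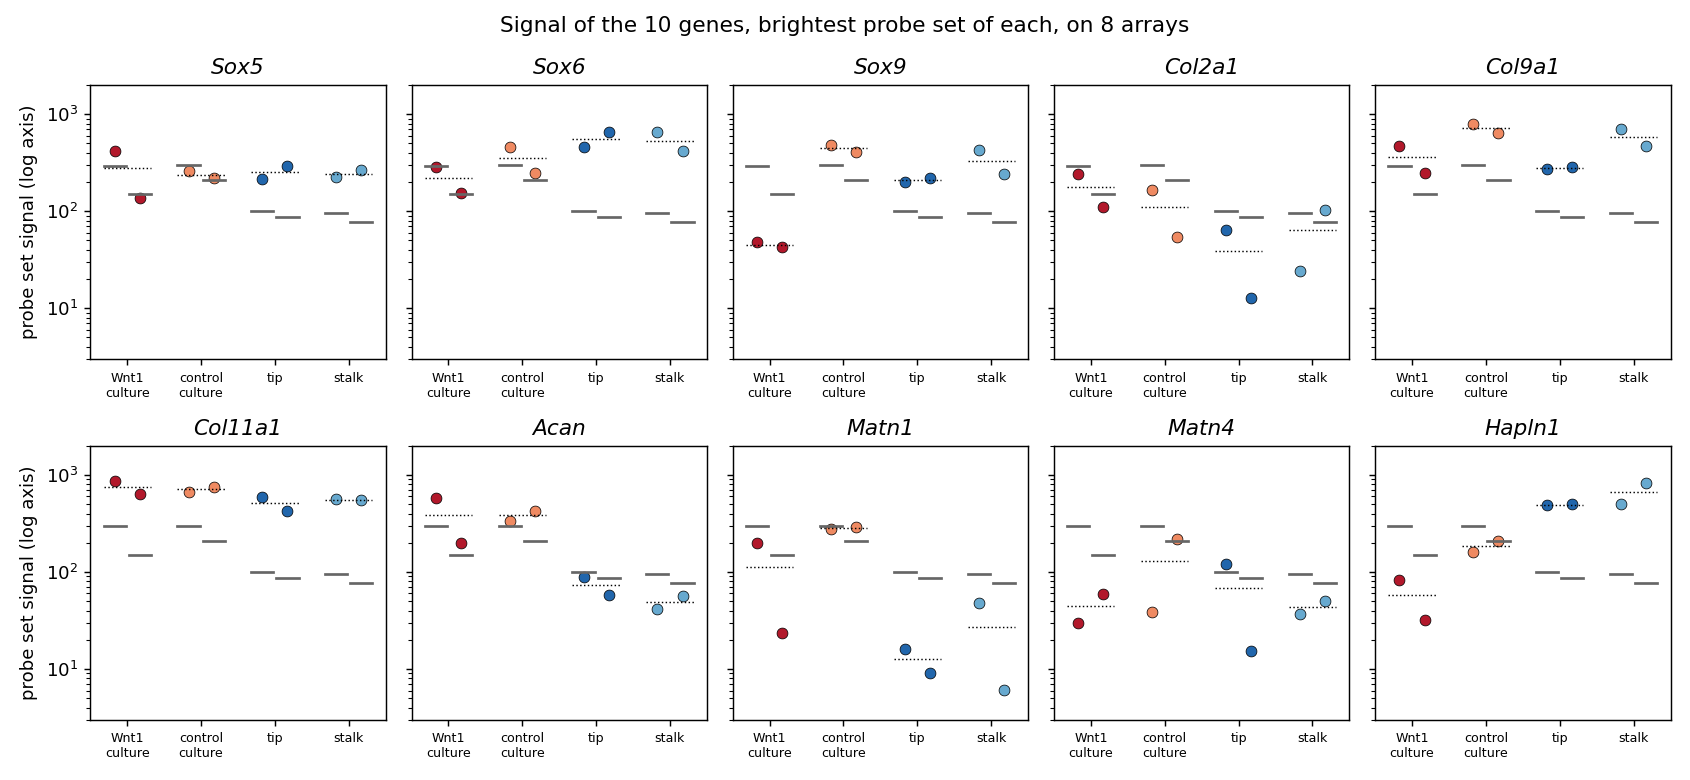
Signal of the brightest probe set of each of the 10 genes on the 8 arrays (vertical log axis, arbitrary units). Each point is 1 array, dotted lines are group means (n = 2 arrays), and short solid lines are the median of that array. Sox9 lies under the array median on both Wnt1 culture arrays and above it on the other 6, and Acan lies above it on the 4 culture arrays alone.

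Sox9 was the member with the widest separation between Wnt1 and control culture. Its brightest probe set, 1451538_at, had signals of 47.7 and 42.4 in Wnt1 culture, 479 and 412 in control culture, 198 and 219 in tip, and 424 and 240 in stalk. Both Wnt1 arrays were the lowest of the 8, the control arrays were among the highest, and tip lay below both stalk arrays. The mean was 45.1 ± 3.74 in Wnt1 culture and 446 ± 47.5 in control culture (SD, n = 2 arrays each). On the log2(signal + 44) scale the difference was -2.46 ± 0.48 (SE), and its adjusted p was 0.55 over all 16112 genes (limma, Benjamini-Hochberg, unadjusted p = 0.000215). The difference therefore did not pass the threshold of 0.05. Both Wnt1 arrays were below their own medians for this probe set, so the size of the difference rests on dim values.

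The Sox9 difference was negative in all 26 alternative treatments of the data, between -2.92 and -0.51, the smallest with all signals under 299, the highest median of any array, raised to that value (a signal floor). It passed the threshold in 2 of them, without both culture arrays numbered 1 (adjusted p = 0.035) and without both numbered 2 (adjusted p = 0.015), where 1 array a group remains and its spread is borrowed from the other groups. In Wnt1 culture against stalk the difference was -2.03 ± 0.48 (adjusted p = 0.020). That call was lost without stalk replicate 1 (adjusted p = 0.19), without stalk replicate 2 (adjusted p = 0.13), with a signal floor (-0.22), and in a fit of the compared groups alone (adjusted p = 0.053).

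The other 2 Sox9 probe sets did not show this pattern. Probe set 1433889_at had signals of 322 and 117 in Wnt1 culture, 384 and 156 in control culture, 26.3 and 50.3 in tip, and 75.4 and 9.60 in stalk. Probe set 1424950_at had 355 and 42.1 in Wnt1 culture, 135 and 24.0 in control culture, 79.2 and 70.4 in tip, and 57.1 and 62.9 in stalk. In both, the Wnt1 and control arrays overlapped, and most values were near or under the array medians. The log2 fold changes of the 3 probe sets for Wnt1 minus control culture ran from -2.46 to 0.75. Averaging them on the log2 scale gave -0.66 for Wnt1 against control culture and 0.13 for Wnt1 culture against stalk, so the low Sox9 level rests on 1 of 3 probe sets.

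**Figure D2:**
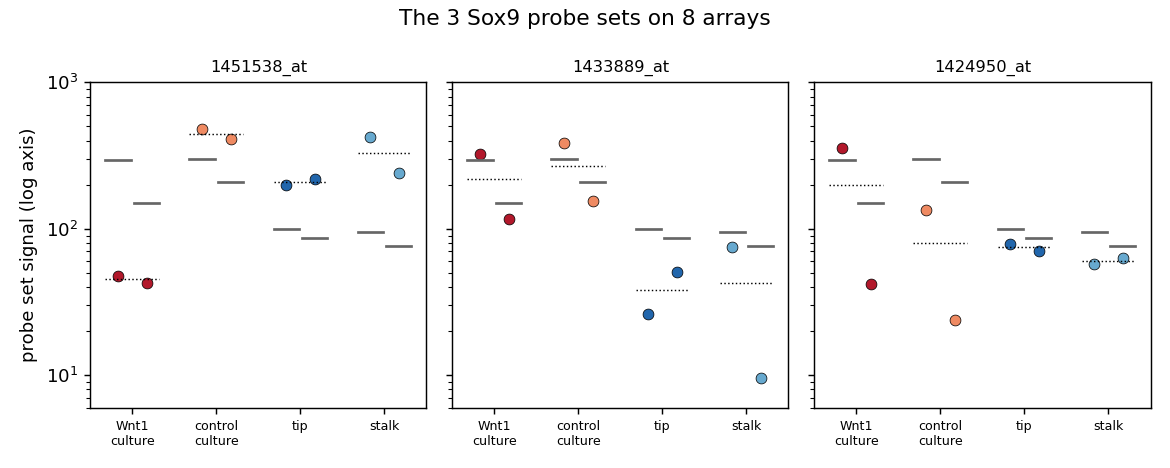
Signals of the 3 Sox9 probe sets on the 8 arrays (vertical log axis, arbitrary units), with array medians as short solid lines and group means as dotted lines (n = 2 arrays). Wnt1 culture lies under control culture without overlap only for 1451538_at, the brightest.

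In tip against stalk, Sox9 had a log2 fold change of -0.53 ± 0.48 (adjusted p = 0.9999), with means of 209 ± 15.2 in tip and 332 ± 130 in stalk. Tip arrays were below both stalk arrays, but stalk replicate 2 was within 1.21 and 1.09 times of tip replicates 1 and 2. In control culture against stalk the arrays overlapped and the log2 fold change was 0.42 ± 0.48 (adjusted p = 0.51).

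The 5 genes with the pattern most like Sox9 were ranked by distance, the root mean square difference of log2 values centred on their mean over the 8 arrays, among 11251 genes. They were Adat1, a tRNA-editing deaminase (0.31), Cspg4, the NG2 proteoglycan of pericytes (0.32), Ambra1, a regulator of autophagy (0.36), Crocc, which encodes the ciliary rootlet protein rootletin (0.37), and Ankle2, a protein of the nuclear envelope (0.41). Adat1, the nearest, had 27.3 and 29.7 in Wnt1 culture, 336 and 332 in control culture, 232 and 260 in tip, and 251 and 271 in stalk. These were the lowest-ranked distances by this measure and carry no test.

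The partner Sox5 did not separate the groups by its brightest probe set. Probe set 1455535_at had 422 and 137 in Wnt1 culture, 258 and 218 in control culture, 214 and 291 in tip, and 225 and 264 in stalk, and the groups overlapped in all 4 comparisons. Sox5 has 7 probe sets, and a dimmer one, 1432190_at, had 480 and 245 in Wnt1 culture, 21.1 and 81.0 in control culture, 15.98 and 8.41 in tip, and 24.3 and 5.35 in stalk. Both Wnt1 arrays were above the other 6. Tested with all 29333 probe sets, it was higher in Wnt1 culture than in stalk by 2.75 ± 0.62 (adjusted p = 0.022) and higher than in control culture by 2.11 ± 0.62 without passing the test (adjusted p = 0.53). Another Sox5 probe set, 1452511_at, was higher in control culture than in stalk by 1.85 ± 0.60 (adjusted p = 0.045), with 186 and 364 in control culture and 46.1 and 35.9 in stalk. Each call rests on 1 of the 7 probe sets. Against stalk the 7 ran from -0.61 to 2.75 in Wnt1 culture, 5 of them above 0, and from -1.10 to 1.85 in control culture, 4 above 0. Probe set 1432189_a_at had 93.9 and 121 in Wnt1 culture, 39.2 and 12.8 in control culture, and 128 and 82.2 in stalk.

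Sox6 gave a similar split between probe sets. Its brightest, 1427677_a_at, had 288 and 153 in Wnt1 culture, 459 and 250 in control culture, 459 and 656 in tip, and 651 and 418 in stalk. Wnt1 culture lay below both uncultured groups, and its difference from stalk was -1.15 ± 0.47 (adjusted p = 0.098). Probe set 1447655_x_at, whose suffix marks oligonucleotides that can bind other transcripts, had 102 and 33.1 in Wnt1 culture, 85.2 and 158 in control culture, 653 and 550 in tip, and 623 and 380 in stalk. Against stalk its log2 fold change was -2.33 ± 0.53 in Wnt1 culture (adjusted p = 0.022) and -1.72 ± 0.53 in control culture (adjusted p = 0.039). Probe set 1434918_at had 780 and 336 in control culture and 226 and 198 in stalk, the opposite order without a call (adjusted p = 0.23).

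Col9a1, a chain of the collagen that coats cartilage fibrils, was the collagen gene with the clearest differences between groups. Probe set 1428571_at had 467 and 249 in Wnt1 culture, 793 and 641 in control culture, 273 and 287 in tip, and 697 and 474 in stalk. Wnt1 culture lay below control culture, and tip below stalk, without overlap in either pair. The difference was -0.97 ± 0.42 for Wnt1 minus control culture (adjusted p = 0.60) and -0.93 ± 0.42 for tip minus stalk (adjusted p = 0.9999), so neither passed the test. In means the signal was 358 ± 154 in Wnt1 culture and 717 ± 108 in control culture, and 280 ± 9.99 in tip and 585 ± 157 in stalk (SD, n = 2 each). The second probe set, 1421381_a_at, had 32.7 and 110 in Wnt1 culture, 431 and 153 in control culture, 98.7 and 108 in tip, and 123 and 103 in stalk. Its log2 fold changes had the same sign as those of the first in all 4 comparisons. For tip minus stalk, however, its log2 fold change was only -0.09, and the arrays overlapped.

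Col11a1, a chain of the fibril-nucleating collagen XI, was the most evenly expressed member by its brightest probe set, 1418599_at. It had 859 and 642 in Wnt1 culture, 669 and 750 in control culture, 597 and 426 in tip, and 563 and 552 in stalk. Both cultures lay above stalk, by 0.39 ± 0.37 for Wnt1 culture (adjusted p = 0.45) and 0.32 ± 0.37 for control culture (adjusted p = 0.51), and neither passed the test. These signs turned with median scaling and with the mean of the probe sets. Its second probe set, 1449154_at, had 146 and 344 in Wnt1 culture, 123 and 477 in control culture, 537 and 406 in tip, and 332 and 477 in stalk, with wide spread within the cultures. Col2a1 had 240 and 111 in Wnt1 culture, 167 and 54.7 in control culture, 64.6 and 12.6 in tip, and 24.0 and 104 in stalk, where nearly all values lay under the array medians.

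Acan, which encodes aggrecan, the large proteoglycan that holds water in cartilage, was higher in both cultures than in stalk. Probe set 1449827_at had 574 and 197 in Wnt1 culture, 338 and 429 in control culture, 88.6 and 58.1 in tip, and 41.9 and 56.0 in stalk. All 4 culture arrays were above all 4 uncultured arrays, and Wnt1 and control culture overlapped. Against stalk the log2 fold change was 2.06 ± 0.56 in Wnt1 culture (adjusted p = 0.032) and 2.20 ± 0.56 in control culture (adjusted p = 0.019). The uncultured arrays were below their medians, so the sizes rest on dim values. Quantile normalization and median scaling ended both calls, with changes of 1.30 and 1.15 in Wnt1 culture and 1.13 and 1.10 in control culture. So did the signal floor (0.43 and 0.31) and leaving out stalk replicate 1 (adjusted p = 0.18 and 0.12) or 2 (adjusted p = 0.18 and 0.13). The call in Wnt1 culture was also lost without Wnt1 culture replicate 1 or either tip array (adjusted p = 0.13, 0.064 and 0.062) and in a fit of the compared groups alone (adjusted p = 0.059), and that in control culture without control culture replicate 1 (adjusted p = 0.067).

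Hapln1, the link protein that fixes aggrecan to hyaluronan, moved the other way. Probe set 1438020_at had 82.4 and 32.3 in Wnt1 culture, 161 and 209 in control culture, 484 and 507 in tip, and 502 and 821 in stalk. The groups without culture lay above both cultures, and Wnt1 culture lay below control culture, all without overlap. Against stalk Hapln1 fell by 2.81 ± 0.48 in Wnt1 culture (adjusted p = 0.0064) and by 1.59 ± 0.48 in control culture (adjusted p = 0.031). The culture arrays were at or below their medians, so the sizes rest on dim values. The difference between Wnt1 and control culture was not past the threshold (adjusted p = 0.56), and both groups were under their array medians there, so no fold is given. The other 3 Hapln1 probe sets held no call in any comparison. Probe set 1421633_a_at had 459 and 149 in Wnt1 culture, 696 and 117 in control culture, 129 and 128 in tip, and 187 and 266 in stalk, with log2 fold changes against stalk of 0.22 in Wnt1 culture and 0.37 in control culture. Against stalk in Wnt1 culture, 1426294_at had a log2 fold change of 0.08 and 1426295_at of -1.38, and in control culture -0.66 and -0.21. The calls therefore rest on 1 of 4 probe sets. The fold change with the mean of the 4 was -0.97 in Wnt1 culture and -0.53 in control culture, both against stalk and past no threshold. The signal floor also ended both calls (adjusted p = 0.11 in Wnt1 culture and 0.088 in control culture). Without stalk replicate 1 or 2 the adjusted p was 0.051 and 0.12 in Wnt1 culture and 0.11 and 0.28 in control culture, where leaving out either tip array (adjusted p = 0.070 each) or control culture replicate 1 (adjusted p = 0.12) also ended the call.

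The matrilins, adaptor proteins of the cartilage matrix, were dim. Matn1 had 200 and 23.6 in Wnt1 culture, 279 and 291 in control culture, 16.2 and 9.13 in tip, and 48.1 and 6.04 in stalk. Control culture was above the other groups on both arrays, although only 1 of its 2 arrays exceeded its own median. Against stalk Matn1 was higher in control culture by 2.28 ± 0.69 (adjusted p = 0.032), which was lost in 9 of the 25 alternatives it could be tested in. These were quantile normalization (1.34), median scaling (1.45), the signal floor (0) and leaving out any 1 of the tip, stalk or control culture arrays (adjusted p = 0.055 to 0.24). Matn4 had 29.5 and 59.5 in Wnt1 culture, 38.9 and 219 in control culture, 122 and 15.3 in tip, and 37.2 and 50.0 in stalk, with no order between groups.

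**Figure D3:**
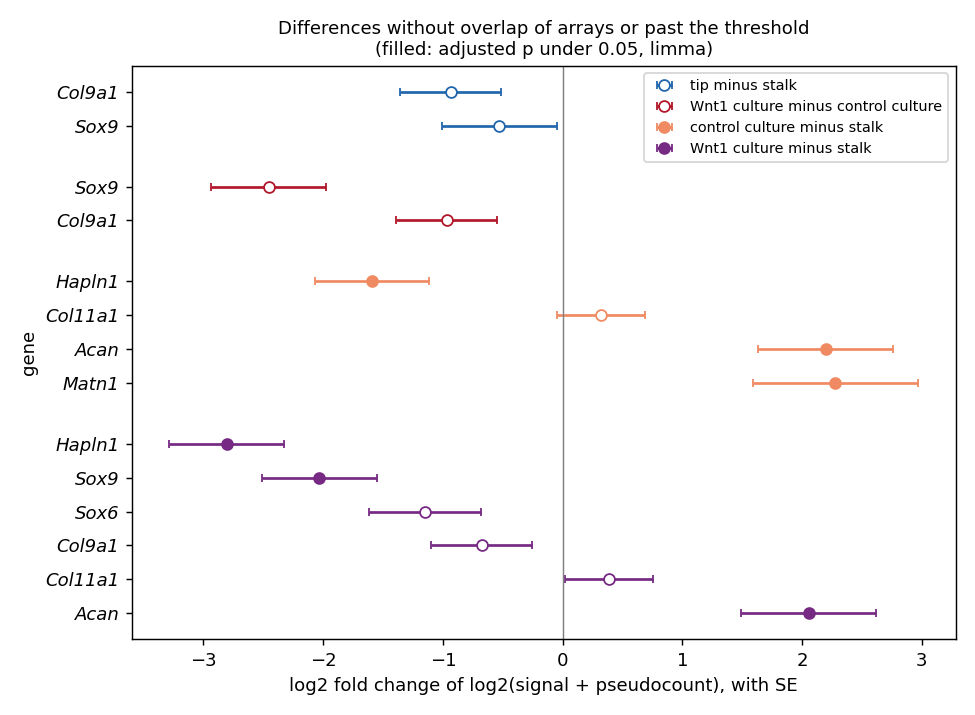
Log2 fold changes with standard errors (horizontal bars) for members that passed the threshold or whose arrays did not overlap with at least 1 group above its array medians, by comparison. Filled points passed an adjusted p of 0.05 (limma, 8 arrays). Acan and Matn1 in control culture, and Acan in Wnt1 culture, lie right of 0, and Hapln1 in both cultures and Sox9 in Wnt1 culture lie left of it, all against stalk.

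Across the 10 members, none passed the test in tip against stalk, nor did any of the 16112 genes (0%). At an unadjusted p under 0.05, 1 member (Col9a1) was lower in tip, against 0.403% of genes. Without overlap of arrays, 2 members (Sox9 and Col9a1) were lower in tip, against 16.2% of genes, and 1 (Acan) was higher, against 18.2%. The median log2 fold change was -0.20 for the members and 0.01 for all genes.

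Between Wnt1 and control culture no member passed, again as for all genes (0%). At an unadjusted p under 0.05, 3 members were lower in Wnt1 culture (Sox9, Col9a1 and Hapln1), against 5.07% of genes. Of the members, 4 lay without overlap below control culture (Sox9, Col9a1, Hapln1 and Matn1), against 15.9% of genes, and none above it, against 10.1%. The members' median was -0.67 and that of all genes -0.08. The members were proposed with earlier results of these data known, so these counts describe them and are not independent evidence of a direction.

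In control culture against stalk, Acan and Matn1 were called higher, 2 of 10 where 17.1% of genes were, and Hapln1 lower, 1 of 10 where 9.26% were. Both shares were near the background. In Wnt1 culture against stalk, Acan was called higher, 1 of 10 where 9.35% of genes were, and Sox9 and Hapln1 lower, 2 of 10 where 6.88% were. The members' median was 0.37 in control culture and 0.01 in Wnt1 culture, against 0.45 and 0.35 for all genes. These 2 comparisons share the stalk arrays. By probe sets, 3 of 26 were called higher and 2 lower in control culture (13.1% and 7.38% of all probe sets), and 2 higher and 3 lower in Wnt1 culture (5.48% and 4.97%).

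**Figure D4:**
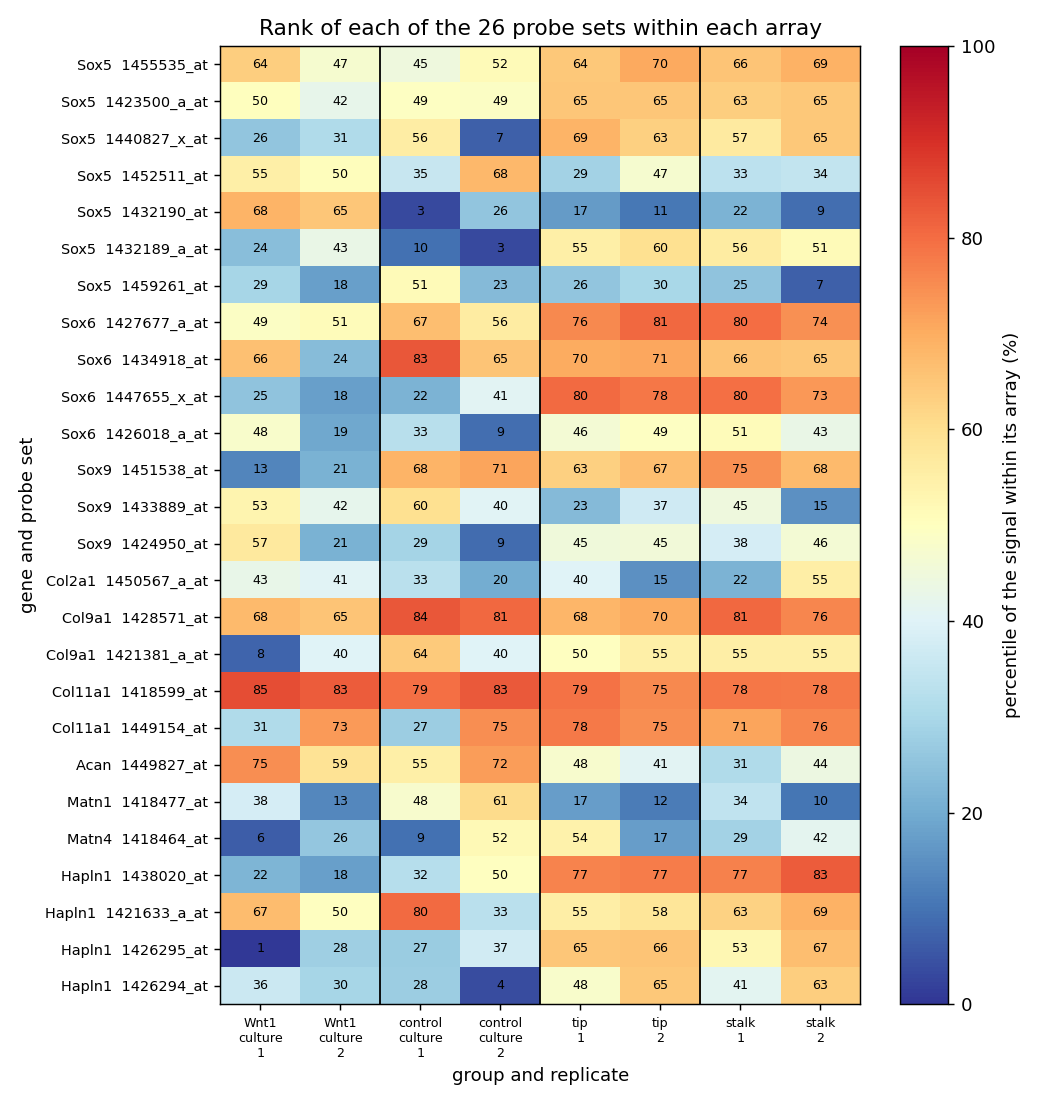
Rank of each of the 26 probe sets within its array, as a percentile of all signals on it (colour and number, 0 dim to 100 bright), with arrays in columns by group. Hapln1 1438020_at stands at percentile 77 to 83 in tip and stalk and at 18 to 50 in the cultures, and Sox9 1451538_at at 13 and 21 in Wnt1 culture and 63 to 75 elsewhere.

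Other genes of cartilage matrix, 14 of a list of 17 tested, were compared in the same way. In control culture against stalk 5 were called higher, where 17.1% of all genes were, and 0 lower, with a median of 1.41 against 0.45 for all genes. They were Ucma, a secreted cartilage protein (2.71), Papss2, which makes the sulphate donor for proteoglycans (2.55), Cnmd, an inhibitor of vessel growth in cartilage (2.10), Epyc (2.03) and Fmod (1.59), the last a pair of small leucine-rich proteoglycans. In Wnt1 culture against stalk 2 were called higher, Ucma (2.16) and Cnmd (1.92), where 9.35% of all genes were. The list's median there was 0.95 against 0.35 for all genes. Cnmd lay under the array median on every array, so its sizes rest on dim values. Whether the calls of this list hold under other normalizations was not tested. No gene of the list was called for tip against stalk, where the widest differences were those of Cnmd (0.72) and Comp (0.72). Both genes were under the array medians in tip and stalk. None was called between Wnt1 and control culture either, where they were those of Chst11 (-1.28) and Snorc (-1.27).

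Among 14 tested genes that regulate cartilage or its patterning, Tbx4 (-2.19), Tbx5 (-1.89) and Pth1r (-1.55) fell in control culture against stalk. Tbx4 and Tbx5 are T-box factors, and Pth1r is the parathyroid hormone receptor. Barx1, a homeobox gene of stomach and cartilage mesenchyme, rose by 1.62. Barx1 had 339 and 219 in control culture and 74.5 and 46.7 in stalk. Both stalk values lay under the array medians, so the size of the rise rests on dim values. Tbx4 (-1.77), Tbx5 (-2.14) and Pth1r (-1.69) also fell in Wnt1 culture. Over all genes, 9.26% were called lower and 17.1% higher in control culture against stalk, and 6.88% lower and 9.35% higher in Wnt1 culture. Of 9 tested other Sox genes, Sox11, Sox4, Sox17 and Sox18 were lower in both cultures than in stalk. Sox11, a factor of immature mesenchyme and neurons, had 1038 and 1246 in Wnt1 culture, 550 and 1129 in control culture, and 9695 and 10662 in stalk. Sox17 and Sox18 are known from endothelium, and of the endothelium markers, which include Sox17, 2 of 5 were called lower in Wnt1 culture and 3 of 5 in control culture. No gene of these lists was called for tip against stalk or between the cultures. Whether the calls of these lists hold under other normalizations was not tested. For Wnt1 minus control culture the widest differences were those of Wwp2 (-1.72) and Notum (-1.09) among the regulators and of Sox13 (0.73) and Sox12 (-0.73) among the Sox genes.

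Hypertrophy and bone genes were 3 of 7 tested. Ibsp, a bone sialoprotein, was called higher in both cultures than in stalk (2.03 in Wnt1 and 1.85 in control culture). It had 468 and 184 in Wnt1 culture, 320 and 208 in control culture, and 41.6 and 38.0 in stalk. In control culture it exceeded the array median on 1 of 2 arrays. Alpl, the tissue alkaline phosphatase, was called higher in control culture (2.04), with 541 and 246 there and 63.8 and 49.5 in stalk. Both genes lay under the array medians in stalk, so the sizes rest on dim values. Whether these calls hold under other normalizations was not tested. Over all genes, 9.35% were called higher in Wnt1 culture and 17.1% in control culture. No gene of this list was called between the cultures or for tip against stalk.

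Markers of other cell types were also called in the cultures against stalk, where 17.1% of all genes were called higher in control culture and 9.35% in Wnt1 culture. Of the 12 epithelium markers, 3 were called higher in control culture against stalk (Nkx2-1, Epcam and Krt19) and 2 in Wnt1 culture (Epcam and Krt19), and none in tip against stalk, where the median was 0.29. Epcam had 825 and 838 in Wnt1 culture, 970 and 839 in control culture, 167 and 238 in tip, and 153 and 136 in stalk. Nkx2-1, the lung epithelial factor, had 714 and 86.8 in Wnt1 culture, 495 and 258 in control culture, 97.8 and 73.7 in tip, and 57.7 and 7.65 in stalk. Cdh1, epithelial cadherin, had 21.2 and 13.9 in Wnt1 culture, 248 and 138 in control culture, 49.2 and 30.5 in tip, and 47.8 and 65.8 in stalk, and Sftpc, the surfactant protein of distal epithelium, 356 and 77.4, 308 and 326, 41.2 and 81.8, and 82.6 and 106 in the same groups. The summed signal of the list was 9060 and 22539 in Wnt1 culture, 8988 and 10604 in control culture, 9718 and 5423 in tip, and 4818 and 5687 in stalk. On Wnt1 culture replicate 2 the sum came mostly from Id2 (8502), Krt18 (6905) and Krt8 (4384). Only 5 of the 12 markers exceeded the median of that array, 149. Nkx2-1, Cdh1 and Sftpc were under it, and Epcam was above it. Cdh1 lay under the array median on every array, Nkx2-1 lay under it on every tip and stalk array, and Epcam lay above it on every array. Between Wnt1 and control culture none of the 12 was called, 5 were above 0 and 7 below, and the median was -0.21 against -0.08 for all genes. The part of epithelium in the Sox9 values was not tested.

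Mesothelium markers gave 1 of 6 called higher in each culture (Upk1b), and neural crest and neuron markers 1 of 6 (Elavl4) in each, with Ednrb lower in Wnt1 culture. Macrophage markers gave 3 of 6 higher in each culture against stalk, C1qb among them, and smooth muscle markers 4 of 6, led by Tagln. Their summed signals were 8465 to 20049 for macrophage markers in the cultures and 1094 to 4125 in tip and stalk, and 108513 to 176504 and 1227 to 6059 for smooth muscle. Mrc1, of the macrophage list, went the other way without a call. It had 214 and 198 in Wnt1 culture, 202 and 188 in control culture, and 388 and 905 in stalk. Myocd, of the smooth muscle list, had 679 and 471 in Wnt1 culture, 449 and 420 in control culture, and 549 and 641 in stalk. It lay below stalk in control culture and overlapped it in Wnt1 culture, without a call. The smooth muscle sums came mostly from Acta2. Summed lung mesenchyme markers were 27650 to 59597 in the cultures and 44371 to 59477 in tip and stalk, mostly from Col1a2 and Col3a1. Of these 10 markers, 5 were called lower and 1 higher in control culture against stalk, where 9.26% of all genes were called lower. In Wnt1 culture 4 were called lower and 0 higher, where 6.88% of all genes were lower. The markers called lower in both cultures include Tbx4 and Tbx5, which are also counted above among the regulators of cartilage. The list's median was -0.94 in control culture and -0.81 in Wnt1 culture, against 0.45 and 0.35 for all genes. The part of these cell types in the culture differences of Acan, Hapln1 and the other members was not tested.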

How the data were processed

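RNA of 8 mesenchyme samples was amplified with a 2-cycle cDNA kit and hybridised to Affymetrix mouse arrays, per the labels' protocols. The authors deposited linear intensity values for 45101 probe sets. The submitters' processing notes name Affymetrix Expression Console and MAS5, and settings and versions are not given in those notes. From the values, the 2% trimmed mean was 500 on every array.

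A probe set with 1 gene symbol was kept if its signal exceeded 96.6, percentile 40 of the table, on 2 or more arrays. The brightest one stood for its gene, which left 16112 genes. Log2(signal + 44), where 44 is percentile 25, was tested with limma 3.58.1 (R 4.3.3, lmFit and eBayes with trend, 8 arrays, two-sided, Benjamini-Hochberg, threshold 0.05), and every adjusted p is from such a fit. These fold changes understate changes of dim genes. There were 4 comparisons, Wnt1 minus control culture, each culture minus stalk, and tip minus stalk.

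All 10 genes are described in each comparison. Of each other list, up to 4 genes past the threshold by p are named, or the 2 widest differences, and always Nkx2-1, Epcam, Cdh1 and Sftpc. Fmod was named outside this rule, after its values were seen. Members, lists and tests were chosen with earlier results of these data known. The test was tried on simulated data, and 26 alternatives were run. Replicate numbers were not taken to pair arrays in the main test. Deviations from the group means of same-numbered arrays correlated at 0.30 between Wnt1 and control culture and at -0.08 to 0.15 in the other comparisons. Whether the numbers pair arrays was not tested. Figures were drawn with matplotlib 3.10.9.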

Additional observations from a re-analysis of the deposited data

How the results depend on the processing

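Of 26 alternatives, none gave a member call for tip against stalk. For Wnt1 against control culture, no array left out singly gave one, while leaving out both culture arrays numbered 1 gave 2 members called, 2 of them lower, and leaving out both numbered 2 gave 1, lower. Against stalk, leaving out 1 array gave 0 to 3 members called in control culture (0 to 2 higher, 0 to 1 lower) and 0 to 4 in Wnt1 culture (0 to 2 higher, 0 to 2 lower). In control culture against stalk, members called higher were 1 with the filter at the highest array median, and 0 with a signal floor, quantile normalization or median scaling. Members called lower were 0 with the floor or the mean of the probe sets and 3 with median scaling, and 1 was called in all with quantile normalization and 0 with the floor. In Wnt1 culture against stalk, 0 were called with the floor, 1 with the mean of the probe sets (0 lower) or only the groups compared (0 higher, 1 lower), and 5 without both culture arrays numbered 1 (4 lower) or numbered 2 (3 higher), while quantile normalization gave 0 higher and median scaling 0 higher and 4 lower. Signs turned for Col11a1, to -1.13 with median scaling and -0.13 with the mean of the probe sets in control culture, to -0.83 and -0.16 in Wnt1 culture, and for Sox9 to 0.13 with the mean of the probe sets in Wnt1 culture, all against stalk. The causes were not tested. Sox6 and Col9a1 passed the threshold in Wnt1 culture against stalk with median scaling, at -2.33 and -1.88. Median scaling moved the median of all genes in control culture against stalk to -0.98, against 0.45 as deposited, and quantile normalization to -0.02. Genes called higher and lower there were 2759 and 1492 as deposited, 599 and 5691 with median scaling, and 554 and 690 with quantile normalization. With the replicate number as a block, member calls were 0, 0, 3 and 3 in the 4 comparisons, as without it, and 3516 and 1904 genes were called in control culture against stalk. Signal near the array medians limits Col2a1, Matn1 and Matn4.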
